A study of Arabidopsis thaliana with 9 samples.

Results

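The pericentromeric NAC103 regions are 725 ChIP regions of 9501 and 3738 DAP regions of 18082, together 4463 of 27583 reproducible regions on the 5 nuclear chromosomes. A ChIP region was a stretch of merged peaks present in at least 2 of 3 replicates, a DAP region one present in both of 2 replicates, and a region was taken as pericentromeric where its midpoint lay in 1 fixed interval per chromosome. On the TAIR10 build these intervals run over 11.5 to 17.7 Mb of chromosome 1, 1.1 to 7.2 Mb of chromosome 2, 10.3 to 17.3 Mb of chromosome 3, 1.5 to 6.3 Mb of chromosome 4 and 9.0 to 16.0 Mb of chromosome 5. They cover 31.1 Mb of 119.1 Mb, or 26.1% of the sequence, and the rest is called the arms here. The intervals are fixed positions, but the NAC103 peak calls decide which regions are members. The intervals were also chosen with earlier results of these data known.

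NAC103 is a plant-specific transcription factor of the NAC family, whose members bind DNA through a conserved N-terminal domain. Pericentromeric chromatin flanks the centromere, is rich in transposons, gene remnants and repeats, and in Arabidopsis carries dense DNA methylation and repressive histone marks. ChIP finds the DNA with which a protein is crosslinked in nuclei, so packaging can affect it. DAP presents a tagged protein with extracted genomic DNA that has lost its histones and keeps its DNA methylation.

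ChIP was made in 3 replicates from whole seedlings, 5 days old, carrying 35S:NAC103-GFP and given 20 µM of the proteasome inhibitor MG132 for 24 h before fixation in 1% formaldehyde. DAP was made in 2 replicates with NAC103-Halo on genomic DNA of untreated Col seedlings of the same age. The constitutive 35S promoter drives the ChIP transgene and MG132 lets the protein build up, so the ChIP shows neither the native level nor the native place of expression. Whole seedlings mix cell types, so binding in few cells and weak binding in all cells cannot be told apart. No ChIP of an untagged line or of GFP alone was used here. Whether the replicates are separate cultures is not stated in the labels, so p-values measure only the spread between these lists, which may be technical. The lists held 4187, 14318 and 17074 nuclear ChIP peaks in replicates 1, 2 and 3 and 20746 and 20962 nuclear DAP peaks in replicates 1 and 2, and sequencing depth is unknown from these files.

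The gene table fitted the label of the intervals. They held 108.8 protein-coding genes per Mb, against 273.3 per Mb on the arms, and 121.4 pseudogenes per Mb, against 12.11 per Mb on the arms. Of 4843 annotated pseudogenes, 3777 lay in the intervals (78.0%). The gene table has no separate class for transposons, so whether an annotated pseudogene is a transposon could not be told here. Pseudogene means this annotation throughout. The 20 ChIP and DAP regions just inside the 10 interval bounds lay 0.230 to 29.6 kb from a bound, and the 20 just outside 0.341 to 60.8 kb from it. The midpoint rule therefore cuts through a continuous series of regions, with 1 of 10 ChIP and 0 of 10 DAP regions just inside overlapping the other assay, and 2 of 10 ChIP and 1 of 10 DAP regions just outside.

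NAC103 peaks were sparse in the intervals in ChIP and much less so in DAP. In ChIP, 12.6%, 7.31% and 8.37% of the peaks of replicates 1, 2 and 3 lay in the intervals, against 20.7% and 20.6% of the DAP peaks. Every ChIP list lay below both DAP lists, and all 5 lay below the 26.1% of sequence that the intervals hold. The ChIP mean was 9.44% ± 2.82 (SD, n = 3) and the DAP mean 20.7% ± 0.0733 (SD, n = 2), a difference of −11.2 percentage points. An exact two-sided permutation test over the 5 lists gave p = 0.1, the smallest value that 3 lists against 2 can give. With only peaks of a −log10 q of at least 10 the lists overlapped, since 40.3%, 10.3% and 8.30% of such ChIP peaks lay in the intervals, against 20.7% and 20.5% of such DAP peaks, and the difference was −0.960 points (exact permutation p = 1).

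Part of the strongest replicate 1 ChIP peaks stood on a raised background. The fold and the p-value of each peak together give the summit pileup and the background behind it, if 1 was added to both before the ratio was taken. The background was more than 2 times the lowest of its list in 91, 45 and 44 pericentromeric ChIP peaks (17.2%, 4.30% and 3.08%) and in 102 and 99 pericentromeric DAP peaks (2.38% and 2.29%), against at most 0.137% of the arm peaks in any list. Without those peaks, and with a −log10 q of at least 10, 22.4%, 8.35% and 7.83% of ChIP peaks lay in the intervals, against 20.3% and 20.1% of DAP peaks, a difference of −7.33 points (exact permutation p = 0.4). The ChIP list of replicate 1 was then still above both DAP lists, and the lists of replicates 2 and 3 below them.

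**Figure D1:**
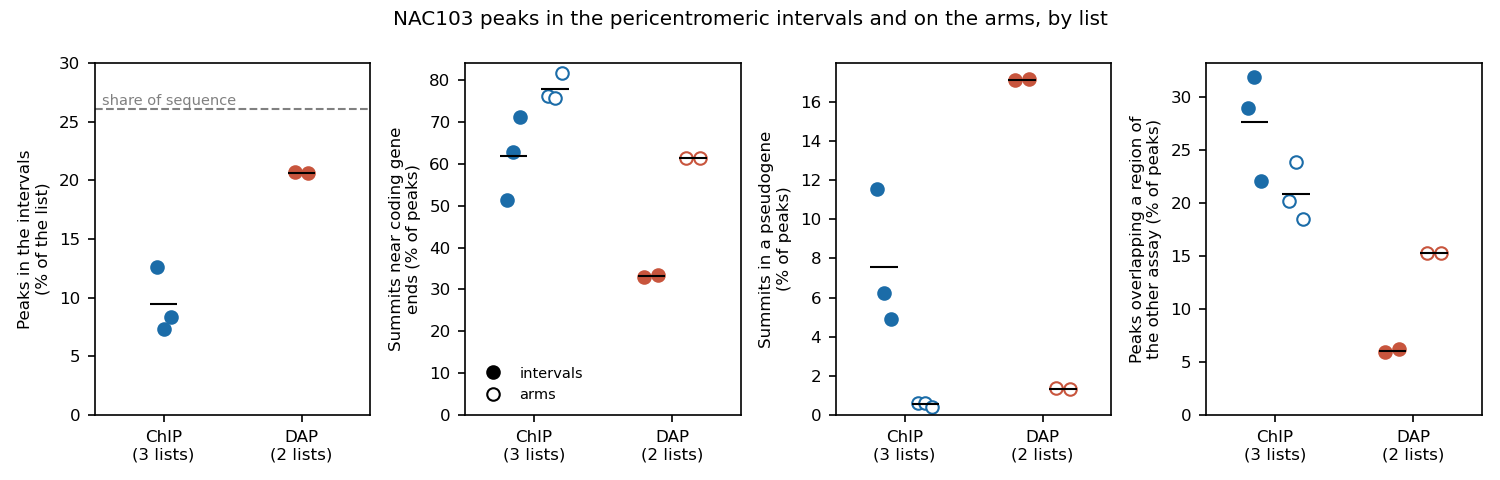
Each point is 1 peak list, filled for the pericentromeric intervals and open for the arms, and each bar is the mean of its lists. The panels give, from left to right, the percent of a list's peaks in the intervals (9.44% in ChIP and 20.7% in DAP on average, with the share of sequence, 26.1%, as a dashed line), and the percent of peaks with the summit near a coding gene end, with the summit in a pseudogene, and overlapping a region of the other assay.

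As reproducible regions, ChIP held 23.3 regions per Mb in the intervals and 99.7 per Mb on the arms, while DAP held 120.2 per Mb in the intervals and 162.9 per Mb on the arms. The pattern was alike on all 5 chromosomes. ChIP density in the intervals ran between 19.2 per Mb on chromosome 2 and 26.3 per Mb on chromosome 1, against 95.9 to 104.7 per Mb on the arms. DAP density in the intervals ran between 111.0 per Mb on chromosome 2 and 129.6 per Mb on chromosome 4, against 159.9 to 165.4 per Mb on the arms. The longest stretch between ChIP summits of neighbouring regions was 0.408 to 0.935 Mb, by chromosome, and the longest between DAP summits 0.0628 to 0.332 Mb. The longest ChIP gap of all lay on chromosome 3, between the summits at 12559299 and 13493795.

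Density fell with distance into the intervals, more steeply in ChIP. The steps below end at 3 Mb inside a bound. The middle of the intervals of chromosomes 1, 2, 3 and 5 lies further in and is left out. The interval of chromosome 4 is too short to reach the last step. In steps of 0.5 Mb inwards from the bounds, ChIP held 52.4, 32.8, 24.2, 11.4, 12.9 and 9.0 regions per Mb, against 66.2 per Mb in the last 0.5 Mb of the arms. DAP held 153.4, 141.6, 125.2, 115.2, 108.8 and 95 regions per Mb in the same steps, against 163.4 per Mb in the last 0.5 Mb of the arms. Coding genes thinned along the same path, to 36.8 per Mb at 2.5 to 3 Mb inside, against 242.0 per Mb just outside, and pseudogenes grew denser, to 160.8 per Mb against 22.8 per Mb. The ChIP regions of the last step, 2.5 to 3 Mb inside, were few (36). Of them 52.8% overlapped a DAP region, against 24.8% of the 331 just outside. The share did not rise steadily, with 28.2%, 30.5%, 38.0%, 28.1% and 35.5% in the steps before, from the bound inwards. The 380 DAP regions of the last step overlapped a ChIP region in 4.74% of cases, against 10.5% of the 817 just outside. In the steps before, from the bound inwards, the DAP share was 10.8%, 7.3%, 8.0%, 2.6% and 4.2%.

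**Figure D2:**
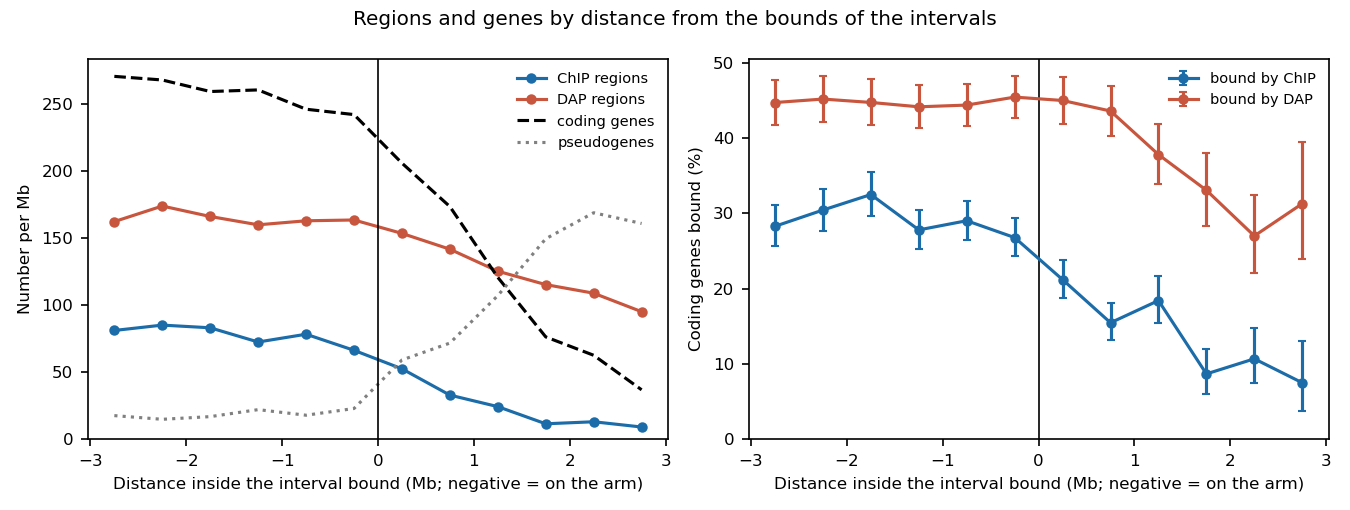
The horizontal axis is the distance inside the nearest interval bound in Mb, with negative values on the arms and the bound at 0. On the left, regions and annotated genes per Mb are shown, with ChIP at 9.0 and DAP at 95 per Mb in the last step shown, 2.5 to 3 Mb inside. On the right, the percent of coding genes bound is shown with exact 95% binomial intervals, with 7.48% bound by ChIP and 31.3% by DAP in the last step shown.

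Around protein-coding genes the assays differed. A summit was called near a coding gene end where it lay between 1000 bp outside and 500 bp inside either end, because the gene table gives no strand. Of the pericentromeric peaks, 51.4%, 62.9% and 71.2% were near a coding gene end in ChIP replicates 1, 2 and 3, against 33.0% and 33.6% in DAP. All ChIP lists were above both DAP lists, with means of 61.8% ± 9.92 (SD, n = 3) in ChIP and 33.3% ± 0.400 (SD, n = 2) in DAP, a difference of 28.5 points (exact two-sided permutation p = 0.1, the smallest possible). On the arms the means were 77.9% ± 3.31 (SD, n = 3) in ChIP and 61.4% ± 0.0831 (SD, n = 2) in DAP. With a −log10 q of at least 10 the ChIP shares in the intervals were 17.6%, 48.2% and 69.0%, against 33.3% in either DAP list, so that replicate 1 fell below DAP. With the peaks of raised background also left out the ChIP shares were 38.2%, 60.8% and 73.4%, against 34.1% and 34.0% in DAP.

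Counted as regions, 488 of 725 pericentromeric ChIP regions had their anchor, the summit of their highest-ranked peak, near a coding gene end. This share was 67.3% (exact Clopper-Pearson 95% interval 63.8 to 70.7%, which like those below covers counting error only), against 80.7% on the arms. For DAP it was 1253 of 3738 (33.5%, 32.0 to 35.1%), against 61.4% on the arms. The sequence itself differs, since windows at coding gene ends make up 25.7% of the intervals and 56.1% of the arms. Per Mb of such windows, ChIP held 61.1 regions in the intervals and 143.5 on the arms, and DAP 156.9 in the intervals and 178.3 on the arms. The lower ChIP density in the intervals was therefore present within coding gene ends too, and was not confined to sequence without genes.

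Among the 3383 coding genes of the intervals, 543 had a ChIP anchor in their window (16.1%, 14.8 to 17.3%), against 36.8% of 24061 coding genes on the arms and 34.3% of all coding genes. DAP anchors lay in the window of 1336 (39.5%, 37.8 to 41.2%), against 44.1% on the arms and 43.5% of all. Both assays marked 267 pericentromeric coding genes (7.89%, 7.01 to 8.85%), against 17.0% on the arms and 15.9% of all. Of the genes bound by DAP, 20.0% (17.9 to 22.2%) were also bound by ChIP in the intervals and 38.6% on the arms. Of the genes bound by ChIP, 49.2% (44.9 to 53.5%) were also bound by DAP in the intervals and 46.2% on the arms. The share bound by ChIP was 21.2% of the coding genes in the outermost 0.5 Mb of the intervals and 7.48% at 2.5 to 3 Mb inside, against 26.8% just outside. The share bound by DAP was 45% in the outermost step and 31.3% at 2.5 to 3 Mb inside, against 45.5% just outside.

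Pseudogenes separated the assays in the other direction. This share and that near coding gene ends come from the same peaks. More peaks at coding gene ends leave fewer for other sequence, so the 2 differences are not independent. The summit lay in a pseudogene for 11.5%, 6.21% and 4.90% of the pericentromeric ChIP peaks of replicates 1, 2 and 3, against 17.1% in either DAP list. The ChIP mean was 7.55% ± 3.51 (SD, n = 3) and the DAP mean 17.1% ± 0.0339 (SD, n = 2), a difference of −9.57 points (exact two-sided permutation p = 0.2), and the lists did not overlap. With a −log10 q of at least 10 replicate 1 of ChIP, at 17.6%, reached the DAP level of 17.2% and 17.4%, and replicates 2 and 3 were at 6.10% and 1.99%. With the peaks of raised background also left out, replicate 1 was at 21.8%, above the 17.5% and 17.7% of DAP, and replicates 2 and 3 were at 5.39% and 1.89%. On the arms the shares were at most 0.629% in ChIP and 1.36% in DAP. Of the 3777 pericentromeric pseudogenes, 67 had a ChIP anchor within the same window of an end (1.77%, 1.38 to 2.25%), against 12.9% on the arms and 4.21% of all pseudogenes. DAP anchors lay at 993 (26.3%, 24.9 to 27.7%), against 32.4% on the arms and 27.6% of all. Both assays marked 37 of the pericentromeric pseudogenes (0.980%, 0.691 to 1.35%), against 5.72% on the arms and 2.02% of all.

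Each region was also placed in 1 of 6 kinds of sequence, the first that applied. Inside a pseudogene and away from coding gene ends, ChIP had 29 regions, or 3.53 per Mb, against 10.1 per Mb of pseudogene on the arms, and DAP had 600, or 73.1 per Mb, against 88.6 per Mb on the arms. Within 1000 bp of a pseudogene or noncoding RNA gene, ChIP had 6.75 regions per Mb in the intervals and 76.1 on the arms, and DAP 115.5 in the intervals and 105.4 on the arms. Where no gene lay within 1000 bp, ChIP had 15.2 per Mb in the intervals and 97.1 on the arms, and DAP 108.8 in the intervals and 98.9 on the arms. Deep inside coding genes, more than 500 bp from either end, ChIP had 18.5 per Mb in the intervals and 27.9 on the arms, and DAP 168.5 in the intervals and 158.9 on the arms. ChIP density was thus lower in the intervals in all 6 kinds of sequence, while DAP density was lower in the intervals at coding gene ends and in pseudogenes and higher in the other 4 kinds.

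**Figure D3:**
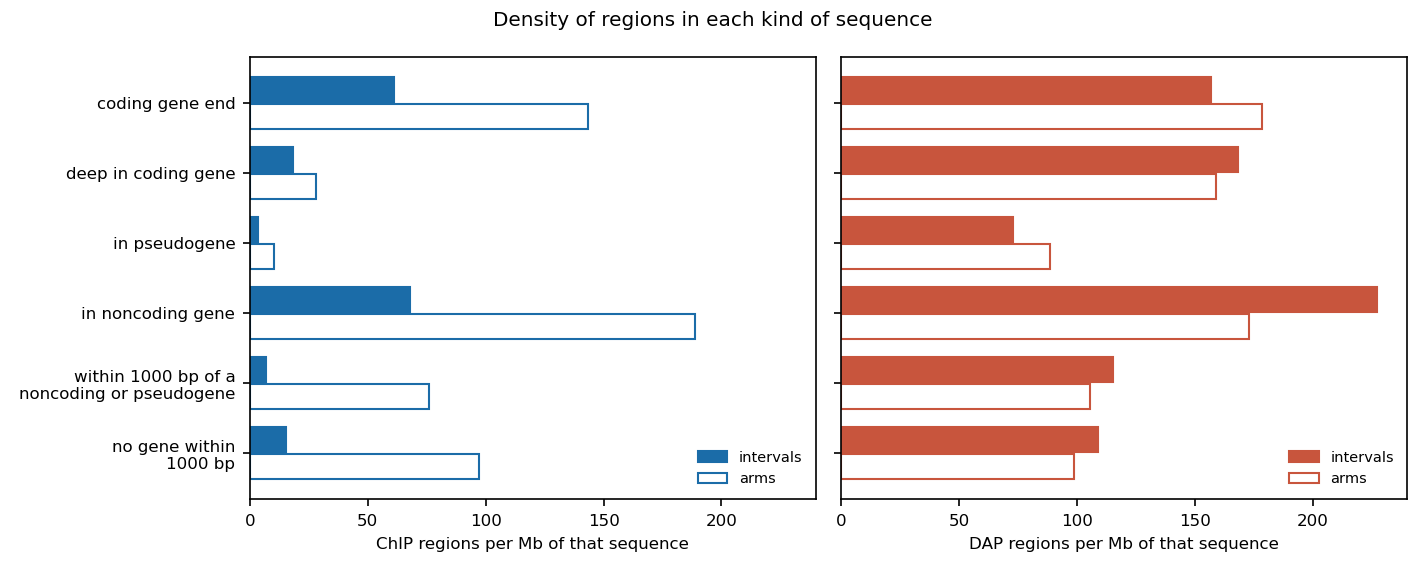
Bars give the regions per Mb of each kind of sequence, for ChIP on the left and DAP on the right, with filled bars for the intervals and open bars for the arms. ChIP bars are shorter in the intervals in every kind, as at coding gene ends (61.1 and 143.5 per Mb), while DAP bars are shorter in the intervals in 2 kinds (156.9 and 178.3 per Mb at coding gene ends) and longer in 4 (227.2 and 172.9 per Mb in noncoding RNA genes).

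The share of long noncoding RNA genes with a ChIP anchor was lower in the intervals, as it was for coding genes. The 2 results are not independent, since an anchor near a coding gene end counts here too. Away from coding genes and pseudogenes, only 83 arm ChIP regions lay in a noncoding RNA gene. Another 143 lay within 1000 bp of a pseudogene or noncoding RNA gene, while 906 of 2862 arm long noncoding RNA genes had a ChIP anchor. Of 618 long noncoding RNA genes in the intervals, 64 had a ChIP anchor in their window (10.4%), against 31.7% on the arms, and 218 a DAP anchor (35.3%), against 35.7% on the arms. Over all 5612 noncoding RNA genes of the genome these shares were 30.9% for ChIP and 33.1% for DAP. The small nuclear RNA genes, whose U1, U4 and U6 products serve the spliceosome, were picked among the noncoding kinds after their values were seen. Of 8 in the intervals, 6 had a ChIP anchor and 0 a DAP anchor, and on the arms 40 of 74 had a ChIP anchor (54.1%) and 21 of 74 a DAP anchor (28.4%). A ChIP share above the DAP share was not particular to them. For small nucleolar RNA genes the ChIP and DAP shares were 37.5% and 29.2% in the intervals and 48.7% and 24.3% on the arms. For tRNA genes they were 19.4% and 11.3% in the intervals and 45.7% and 22.0% on the arms. MicroRNA genes went the other way (10.8% and 26.2% in the intervals, 23.0% and 29.5% on the arms).

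The 6 genes lie in 3 pairs, each under 1 ChIP region, so they are not 6 separate sites. At U4.8 and U1.9 (chr5:9493550-9494811) the ChIP fold was 3.67, 19.8 and 5.73 in replicates 1, 2 and 3. At U1.8 and U4.7 (chr5:9832284-9833367) it was 2.79, 13.7 and 3.48. At U1.14p and U4.10 (chr1:12986541-12987090) it was 1.78, 1.98 and 2.11. The anchors at U4.8 and U1.9 and at U1.8 and U4.7 also lay near a coding gene end. This held for 67.3% of all pericentromeric ChIP regions. The coding gene AT5G26990 was among the genes at U4.8 and U1.9. No DAP region lay at any of the 3 pairs, and U6.7 and U6.10p had no region in either assay. Small nuclear RNA genes exist as near-identical copies, so the reads of single genes are uncertain.

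The share of ChIP regions that overlapped a DAP region was higher in the intervals than on the arms, and the share of DAP regions that overlapped a ChIP region was lower. Regions are not replicates, so neither difference was tested. Of the 725 ChIP regions 233 overlapped a DAP region by at least 1 bp (32.1%, 28.8 to 35.7%), against 25.5% on the arms and 26.0% over the genome. Of the 3738 DAP regions 246 overlapped a ChIP region (6.58%, 5.81 to 7.42%), against 16.1% on the arms and 14.1% over the genome. In the ChIP lists 28.9%, 31.9% and 22.0% of pericentromeric peaks overlapped a DAP region, against 20.2%, 23.8% and 18.5% of arm peaks. In the DAP lists 5.91% and 6.18% of pericentromeric peaks overlapped a ChIP region, against 15.3% of arm peaks in either list. All 3 ChIP lists thus moved one way and both DAP lists the other. The lists of an assay were set against the same regions of the other assay, so they are not independent here. Those regions also differed in density between intervals and arms, as given above. The ChIP overlap was higher in the intervals under 12 of 12 other settings and the DAP overlap under 0 of 12. The gap for DAP was smaller among peaks past a −log10 q of 10, with 2.41% of DAP regions overlapping in the intervals and 3.0% on the arms. It was also smaller without ChIP replicate 2 (3.42% in the intervals and 5.63% on the arms), without ChIP replicate 3 (3.37% and 5.64%) and with ChIP regions in all 3 replicates (3.24% and 5.86%).

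Where the assays overlapped, the summits lay closer together in the intervals than on the arms. The overlap itself limits this distance. The median distance between the ChIP anchor and the nearest DAP anchor was 152 bp over the 233 overlapping regions, against 220 bp over 2241 on the arms, and 42.9% (36.5 to 49.5%) lay within 100 bp, against 29.3% on the arms. ChIP regions in the intervals were narrower, with a median width of 516 bp against 583 bp on the arms. Overlapping pericentromeric ChIP regions were 627 bp wide at the median and the others 476.5 bp, against 724 and 550 bp on the arms. The part of region width in the summit distances was not tested. In 5 equal groups by rank of fold, 42.8% of the pericentromeric ChIP regions in the top group overlapped DAP, against 26.2% to 31.7% in the other 4 groups. The arms had the same order, with 30.1% in the top group and 21.4% to 28.5% in the others. Regions of the top pericentromeric group were also wider (median 639 bp, against 426 to 559 bp), and the part of width in this overlap was not tested. Of the pericentromeric DAP regions, 10.6% of the top group overlapped ChIP, against 3.88% to 7.49% in the other 4. On the arms these shares were 22.3% and 13.4% to 17.0%. Over kinds of sequence the ChIP share ran between 23.2% of 95 regions with no gene within 1000 bp and 44.8% of 29 regions in pseudogenes (26.5 to 64.3%). The DAP share ran between 2.00% of 600 regions in pseudogenes and 10.9% of 1253 at coding gene ends.

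The strongest ChIP enrichment of the genome lay in the intervals, apart from the low density of regions there. Ranked by the mean percentile of the authors' fold over the replicates, the 8 highest ChIP regions of all 9501 were pericentromeric, as were 12 of the highest 20 and 27 of the highest 100, while the intervals held 7.63% of all ChIP regions. All 8 overlapped a DAP region, against 26.0% of all ChIP regions. None of them was at a coding gene end, against 79.7% of all ChIP regions. High-ranked arm regions also overlapped DAP more often, with 13 of the 33 among the highest 50, against 25.5% of all arm regions. Of the 17 pericentromeric regions among the highest 50, 14 overlapped DAP. In ChIP replicates 1, 2 and 3, 8, 3 and 7 pericentromeric peaks had a fold above that of any arm peak, the highest arm folds being 4.20, 20.7 and 8.10. DAP had no such set, with 0 peaks above the highest arm fold of either list. Of its highest 10 and 20 regions 3 and 6 lay in the intervals, which held 20.7% of all DAP regions.

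The highest region, chr2:3531957-3533371, had its summit in the long noncoding RNA gene AT2G05445. Its ChIP fold was 12.7, 48.0 and 39.1 in replicates 1, 2 and 3, and the fold of the DAP peak there 11.4 and 12.9 in replicates 1 and 2. The recovered ChIP pileups at the summit were 409, 1160 and 796 over backgrounds of 31.4, 23.2 and 19.4, close to the lowest background of each list, so this peak does not stand on a raised background. The ChIP and DAP summits were 16 bp apart. A second region, chr2:3537428-3538657, lay a few kb away and 362 bp from the pseudogene AT2G07700, with a ChIP fold of 9.85, 32.8 and 24.0 and a DAP fold of 11.6 and 11.9. The third, chr3:14509132-14510390, was 55 bp from the pseudogene AT3G42386, with a ChIP fold of 8.46, 31.5 and 15.3 and a DAP fold of 12.3 and 12.8. All 3 replicates placed these regions at the head of their lists.

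Of the 8, 3 lay on chromosome 5. At chr5:12769199-12769846, 883 bp from the pseudogene AT5G33624, the ChIP fold was 5.46, 19.9 and 8.38, the DAP fold 10.7 and 10.6, and the summits of the assays 1 bp apart. At chr5:12751840-12753152, 102 bp from the pseudogene AT5G33438, the ChIP fold was 4.35, 13.8 and 8.43, the DAP fold 6.68 and 6.80, and the summits 3 bp apart. At chr5:13156149-13156826, where the nearest gene is the pseudogene AT5G34864 at 1720 bp, the ChIP fold was 4.01, 16.9 and 8.43 and the DAP fold 10.6 and 10.3. The remaining regions of the 8 had their summits inside pseudogenes. At chr2:6885331-6886681 in AT2G15810 the ChIP fold was 4.07, 15.2 and 7.35 and the DAP fold 9.70 and 10.5. At chr3:14030458-14031280 in AT3G33193 the ChIP fold was 5.15, 12.5 and 6.76 and the DAP fold 9.25 and 11.2. The anchors of the 8 lay 1 to 111 bp from the DAP anchor, and the replicates were not compared in size of fold, since each list was called separately.

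**Figure D4:**
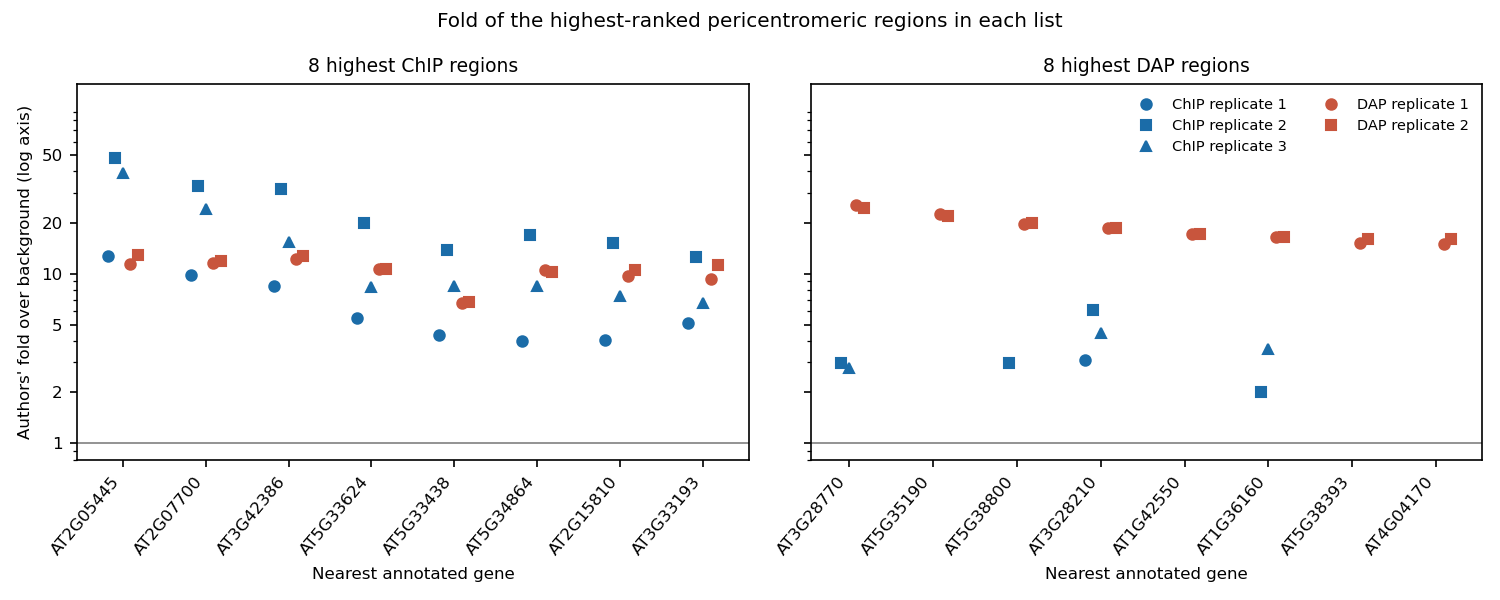
The authors' fold over background is given on a log axis for the 8 highest-ranked pericentromeric ChIP regions (left) and DAP regions (right), named by the gene nearest to the anchor. Blue marks are ChIP replicates and red marks DAP replicates, and a missing mark means no peak in that list. All 5 lists have a peak at each of the 8 ChIP regions, and only AT3G28210 has one in all 5 lists among the 8 DAP regions.

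Of the 8 highest pericentromeric DAP regions, 6 were at coding genes, 4 had no peak in any ChIP list and 1 had a peak in all 3. The median fold of pericentromeric ChIP peaks was 1.98, 2.05 and 2.40 in replicates 1, 2 and 3, for comparison with the ChIP folds below. The first, chr3:10797918-10800593, lay deep in the coding gene AT3G28770, with a DAP fold of 25.2 and 24.5 and a ChIP fold of 2.97 and 2.77 in replicates 2 and 3 and no ChIP peak in replicate 1. The next, at EXT13 (AT5G35190) for an extensin of the cell wall, had a DAP fold of 22.4 and 21.8 and no ChIP peak. At bZIP43 (AT5G38800), which encodes a bZIP transcription factor, the ChIP fold was 3.0 in replicate 2 alone and the DAP fold 19.7 and 19.9. Of the 8, only PMZ (AT3G28210), a stress-associated zinc finger gene, had a peak in every list, with a ChIP fold of 3.09, 6.07 and 4.46 and a DAP fold of 18.5 and 18.6. The region at PMI1 (AT1G42550) and MLO9 (AT1G42560) had a DAP fold of 17.0 and 17.1 and no ChIP peak. PMI1 acts in chloroplast movement, and MLO9 belongs to a family of membrane proteins. In ACC1 (AT1G36160), the acetyl-CoA carboxylase gene of fatty acid elongation, ChIP had a fold of 2.01 and 3.62 in replicates 2 and 3 and DAP one of 16.5 and 16.4, and the anchors were 449 bp apart.

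In pseudogenes the assays ranked different sites first, with exceptions. The highest DAP regions in pseudogenes were at AT5G38393 (fold 15.1 and 16.0), AT4G04170 (15.0 and 16.0) and AT5G26350 (13.5 and 14.1), none with a ChIP peak in any list. The highest ChIP regions in pseudogenes were those in AT2G15810 and AT3G33193 described above and one in AT2G06980, where the ChIP fold was 3.12, 8.43 and 4.02 and the DAP fold 12.4 and 13.6. That region was also the highest DAP region of the chromosome 2 interval, with summits 13 bp apart. With no gene within 1000 bp, the ChIP region 1261 bp from AT5G36907 had a ChIP fold of 2.56, 3.42 and 6.32 and no DAP peak. Another, 2435 bp from ERD5, the proline dehydrogenase gene, had a ChIP fold of 2.62, 3.25 and 5.45 and a DAP fold of 2.09 and 1.97. The highest DAP regions with no gene within 1000 bp were the chromosome 5 site near AT5G34864 described above, one 2519 bp from AT2G16010 (DAP fold 10.2 and 10.5, ChIP fold 3.03 in replicate 2 alone) and one 2212 bp from AT3G42181 (DAP fold 9.02 and 9.45, ChIP fold 2.31 in replicate 2 alone). In noncoding RNA genes, after AT2G05445, the highest DAP regions were in AT3G06945 beside CHX11 of the cation/proton exchangers (fold 10.3 and 9.57) and in AT3G06365 (fold 9.02 and 8.30 over raised backgrounds of 173.0 and 180.4), neither with a ChIP peak.

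The best ChIP regions of the remaining intervals were near genes. On chromosome 1 it was 106 bp from the long noncoding RNA gene AT1G07323, with a ChIP fold of 3.90, 7.96 and 7.06 and no DAP peak. On chromosome 4 it was 24 bp outside the coding gene AT4G05380, with a ChIP fold of 3.50, 8.71 and 9.06 and a DAP fold of 11.0 and 10.7. The ChIP regions nearest to the middle of the intervals were weaker. On chromosome 1 it was 4669 bp from the pseudogene AT1G38140, with a ChIP fold of 2.38, 3.29 and 3.87 and a DAP fold of 7.50 and 7.54. At MIR396a on chromosome 2, a microRNA gene, the ChIP fold was 2.51 and 2.89 in replicates 2 and 3, with no peak in replicate 1 or in DAP. At XGD1 on chromosome 5, for a pectin xylosyltransferase, it was 1.97 and 3.04 in replicates 2 and 3, with a DAP fold of 3.69 and 3.54. In the middle of chromosome 3 the ChIP region had a fold of 2.03 and 2.12 in replicates 1 and 2 over backgrounds of 63.0 and 41.5, and in the middle of chromosome 4 a fold of 2.22 and 2.01 over 73.0 and 48.2, where the lowest backgrounds of those lists were 31.4 and 22.4. The most central DAP regions lay in the pseudogene AT1G39110 on chromosome 1 (fold 6.16 and 6.07) and 301 bp from AT2G10617 on chromosome 2 (4.35 and 4.08). On chromosome 3 the most central was 18368 bp from its nearest gene AT3G33069 (2.67 and 2.88), on chromosome 4 in AT4G06682 (2.49 and 2.49) and on chromosome 5 758 bp from AT5G33251 (3.32 and 3.04). None of these 5 had a peak in any ChIP list.

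The peaks of raised background merged into 170 sites, which 59 of 725 pericentromeric ChIP regions and 95 of 3738 DAP regions overlapped. At the site with the highest background, chr3:13590334-13590849, the ChIP pileups were 31621, 24688 and 22657 over backgrounds of 22190, 18016 and 15911, so the fold was 1.43, 1.37 and 1.42. DAP there had pileups of 40421 and 41615 over backgrounds of 38769 and 40463, with a fold of 1.04 and 1.03. The pileups at this site thus went with a fold of 1.03 to 1.43 over the 5 lists. One site, chr5:11185576-11185916, had a ChIP fold of 2.84, 2.55 and 2.47 over backgrounds of 6621, 5158 and 4525 and no DAP peak. Without the raised-background peaks 667 ChIP and 3646 DAP regions remained in the intervals, and 31.6% and 6.17% of them overlapped the other assay.

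A smaller share of merged ChIP stretches had a peak in more than 1 replicate in the intervals than on the arms. Of 1968 in the intervals, 1243 came from 1 replicate (63.2%, 61.0 to 65.3%), 474 from 2 (24.1%, 22.2 to 26.0%) and 251 from all 3 (12.8%, 11.3 to 14.3%), against 57.1%, 30.5% and 12.4% on the arms. Of 4835 merged DAP stretches in the intervals 77.3% came from both replicates, as on the arms. Across regions shared by a pair of replicates, which are not independent, Spearman's rho of the fold was 0.48 to 0.57 for the 3 ChIP pairs in the intervals, against 0.36 to 0.48 on the arms, and 0.94 for DAP in both. The ChIP count rested on replicates 2 and 3, since 353 regions were left without replicate 2 and 286 without replicate 3, and the share of DAP regions overlapping ChIP was then 3.42% and 3.37%.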

How the data were processed

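The submitters' processing notes name BWA, MACS2 and the build TAIR10; versions and settings are not given in the sources used here. The 5 deposited lists are narrow peaks of single libraries called against input, per the labels, with 3 ChIP inputs and 1 DAP input among the 9 samples. The authors' deposited columns used are the peak score, the fold over background at the summit (a ratio), 2 columns on a −log10 scale (p-value, q-value) and the summit position. The fold ranked and described peaks within a list only.

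Organelle peaks were left out. Peaks of 1 assay overlapping by at least 1 bp were merged. Regions were ranked by their fold percentile within each list, averaged over replicates, and the anchor of a region was the summit of its highest-ranked peak. Coordinates are 1-based TAIR10. Gene names came from a RefSeq table of assembly TAIR10.1, whose 27444 coding genes carry no strand. Its fit was checked with pericentromeric ChIP regions: 19.7% of their anchors were at most 300 bp outside a gene end, against 11.2% and 9.93% after shifts of 2000 bp. DAP anchors showed no such difference (7.68%, against 7.76% and 7.06%), so they do not check the fit. Pileup and background were recovered by assuming that 1 is added to both before the ratio, which matched the deposited −log10 p within 0.01 for 100% of peaks.

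Lists were compared by exact two-sided permutation, and shares of regions given with exact binomial intervals, with no test. Named regions followed a rule: the 8 highest ChIP regions in 3 replicates, the 6 highest that overlap DAP, the 8 highest DAP regions, the 3 highest of either assay in pseudogenes, in noncoding RNA genes and with no gene within 1000 bp, and the best and the most central of each interval. Where 2 parts of the rule name a region it is described once, and the small nuclear RNA genes were added after their values were seen. The intervals, members and settings were chosen with earlier results of these data known. Promoter sequences, sequence words and the earlier gene lists were not analysed here. Alternatives were a minimum −log10 q of 10, the top 4187 peaks of each list, other bounds, windows and overlaps, ChIP in all 3 replicates, a replicate block and each replicate left out; leaving out raised backgrounds was added after seeing the data. The calculations were tested on simulated data. Python 3.11.15, pandas 2.3.3, NumPy 2.4.6 and SciPy 1.17.1 were used.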

Additional observations from a re-analysis of the deposited data

Results flagged for a closer look

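The share of peaks that overlap a region of the other assay differed between the intervals and the arms in opposite directions in the assays. Intervals minus arms, it was 8.72, 8.08 and 3.55 percentage points in ChIP replicates 1, 2 and 3 and −9.41 and −9.12 points in DAP replicates 1 and 2. Every ChIP list moved one way and every DAP list the other, and the difference was not tested. The lists of an assay were set against the same regions of the other assay. Per Mb, these were 23.3 ChIP regions in the intervals and 99.7 on the arms, and 120.2 and 162.9 DAP regions.

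Peaks on the mitochondrial and plastid genomes, which enter no comparison above, numbered 21 in ChIP replicate 1, 2 in ChIP replicate 2, 21 in ChIP replicate 3, 46 in DAP replicate 1 and 49 in DAP replicate 2. No control list was used here to set against them.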

How the results depend on the processing

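The 3 differences between ChIP and DAP lists kept their sign under every alternative run, and none can pass an exact permutation test at 0.05 with 5 lists. Leaving out 1 list at a time, the difference ran between −12.8 and −10.2 points for the share in the intervals, between 23.9 and 33.8 for coding gene ends and between −11.6 and −8.24 for pseudogenes. With the replicate number as a block, replicates 1 and 2 gave −10.7, 23.9 and −8.24 points (exact permutation p = 0.5 each); the numbers only name the lists and pair nothing.

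The 725 ChIP regions became 136 at a −log10 q of at least 10, 98 when raised backgrounds were also left out, 266 with equal numbers of top peaks, 463 in intervals 0.5 Mb narrower at each end, 251 in all 3 replicates and 286 to 725 with a replicate left out. The 3738 DAP regions became 737 with equal numbers and 3738 to 4318 with a replicate left out. Without 1 DAP list a region needed a peak only in the other (4295 and 4318 regions). Without 1 ChIP list it needed a peak in both others. Leaving out a list of the other assay cannot change a count, which gives the ends at 3738 and 725. The share of ChIP regions near coding gene ends (67.3%) was 47.1% at the stricter q, 63.5% in narrower intervals, 62.6% in all 3 replicates, 58.8% and 76.8% with windows of 500 and 2000 bp, 72.9% without raised backgrounds and 57.0% to 69.4% with a replicate left out. For DAP (33.5%) it was 28.6% and 37.8% in narrower and wider intervals, 26.1% and 46.2% with the 2 windows and 33.0% to 33.6% with a replicate left out. The ChIP overlap (32.1%) was 47.1% at the stricter q, 53.1% without raised backgrounds too, 17.7% with equal numbers, 42.2% in all 3 replicates, 14.8% with 50% of each region shared, 13.8% with anchors within 100 bp and 33.2% to 39.9% with a replicate left out. The DAP overlap (6.58%) was 2.41% at the stricter q, 2.07% without raised backgrounds too, 5.49% in narrower intervals, 3.24% against ChIP in all 3 replicates, 2.86% with 50% of each region shared, 2.68% with anchors within 100 bp and 3.37% to 6.18% with a replicate left out. The cause of these moves was not tested beyond what each setting leaves out. Depth is unknown, so a site without a peak was not detected at the depth of that list.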
